A study of Mus musculus with 12 samples.

Results

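Of the 12 mouse cortex libraries of this series, 3 carried high levels of transcripts typical of the olfactory bulb. They were selected on 1 gene, Doc2g, as the libraries in which it reached 20 CPM (the read count of a gene scaled to the total count of its library), and the other 9 fell below that level. The 3 bulb-rich libraries are the third wild type of the knock-in line (KI_WT 3), the first knockout (KO 1) and the third wild type of the knockout line (KO_WT 3). All animals were adult mice on a C57Bl/6 background, and the RNA came from cortical brain tissue. The KI group (3 mice, 0 of them bulb-rich) has the genotype Grin1-exon5+/+, in which exon 5 of the NMDA receptor subunit gene Grin1 is included constitutively, and the KI_WT group (3 mice, 1 bulb-rich) holds wild types of that line. The KO group (3 mice, 1 bulb-rich) has the genotype Grin1-exon5-/-, in which exon 5 is absent, and the KO_WT group (3 mice, 1 bulb-rich) holds wild types of that line. Each library is 1 animal with its own animal number. Because the groups of libraries were formed from a measured value, the contrast of 3 bulb-rich with 9 other libraries is described below without a test.

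The olfactory bulb is the first relay of smell in the brain. Axons of the olfactory sensory neurons of the nose end in its glomeruli, where they contact mitral and tufted cells, the excitatory projection neurons of the bulb, and these send their own axons to the olfactory cortex. Most other bulb neurons are GABA-releasing granule and periglomerular cells, some of which also make dopamine, and new ones arrive throughout life as neuroblasts that migrate forward along the rostral migratory stream. In bulk tissue, more cells of a type in the sample and more RNA per cell cannot be told apart.

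Doc2g encodes a protein with paired C2 domains, a fold that binds membranes in the related vesicle release sensors Doc2a and Doc2b, and it is abundant in mitral and tufted cells. Doc2g reached 72.7 CPM in KI_WT 3, 27.2 CPM in KO 1 and 26.3 CPM in KO_WT 3, the library just inside the threshold. The next library, KI 2, lay just outside it at 16.2 CPM. The remaining 8 ranged between 1.27 CPM (KO_WT 1) and 5.89 CPM (KI 3). The counts behind these levels were 2406, 967 and 882 reads in the bulb-rich libraries and 536 reads in KI 2. The exact (Clopper-Pearson) 95% binomial interval, which covers counting error only, was 24.6 to 28.1 CPM for KO_WT 3 and 14.9 to 17.6 CPM for KI 2, so that depth did not decide on which side of 20 CPM either library fell. KI 2 thus lay between the bulb-rich libraries and the remaining 8, and it reappears in that place for most genes below. Doc2g lies on chr19:4003313-4007005 (GRCm38, + strand) and its exons overlap Gm49405, an annotated protein-coding gene on the same strand. The Gm49405 counts were 162 in KI_WT 3, 188 in KO 1 and 151 in KO_WT 3, within the 123 to 229 of the other 9 libraries. Its paralogs did not follow Doc2g: Doc2a was at 21.4, 24.3 and 25.4 CPM in KI_WT 3, KO 1 and KO_WT 3, against 22.7 to 48.2 CPM in the other libraries, and Doc2b was at 33.3, 44.8 and 39.2 CPM against 29.2 to 49.9 CPM.

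Promoters of 4 genes that separate the bulb-rich libraries and stand for its cell types are shown because these genes were high together: Doc2g and Cdhr1 of the projection neurons, and S100a5 and Cnga2 of the sensory neurons. Each is the RefSeq window (GRCm38.p6) that ends 50 bases past the start of the gene, read 5′ to 3′ on the strand of the gene, namely chr19:4003135-4003434 (+ strand) for Doc2g, chr14:37098298-37098597 (- strand) for Cdhr1, chr3:90608272-90608571 (+ strand) for S100a5 and chrX:71991599-71991898 (+ strand) for Cnga2. Capitals mark a match to the letters TCCCNNGGG, searched on both strands.
Doc2g: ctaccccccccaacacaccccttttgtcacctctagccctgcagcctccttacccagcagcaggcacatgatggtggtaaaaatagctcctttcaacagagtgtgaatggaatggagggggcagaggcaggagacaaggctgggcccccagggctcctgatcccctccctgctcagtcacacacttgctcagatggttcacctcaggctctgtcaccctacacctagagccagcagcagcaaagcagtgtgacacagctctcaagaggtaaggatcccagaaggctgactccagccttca
Cdhr1: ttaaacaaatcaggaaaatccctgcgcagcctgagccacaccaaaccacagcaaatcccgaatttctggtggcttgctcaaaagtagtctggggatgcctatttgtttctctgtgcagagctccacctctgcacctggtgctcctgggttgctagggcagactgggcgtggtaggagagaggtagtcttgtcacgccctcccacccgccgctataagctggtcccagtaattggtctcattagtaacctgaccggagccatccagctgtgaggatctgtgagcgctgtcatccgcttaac
S100a5: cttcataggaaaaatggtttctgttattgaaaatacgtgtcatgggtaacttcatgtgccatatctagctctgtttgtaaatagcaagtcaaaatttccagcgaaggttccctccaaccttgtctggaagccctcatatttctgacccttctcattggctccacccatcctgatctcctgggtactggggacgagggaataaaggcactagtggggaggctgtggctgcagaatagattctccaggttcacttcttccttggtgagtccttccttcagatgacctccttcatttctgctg
Cnga2: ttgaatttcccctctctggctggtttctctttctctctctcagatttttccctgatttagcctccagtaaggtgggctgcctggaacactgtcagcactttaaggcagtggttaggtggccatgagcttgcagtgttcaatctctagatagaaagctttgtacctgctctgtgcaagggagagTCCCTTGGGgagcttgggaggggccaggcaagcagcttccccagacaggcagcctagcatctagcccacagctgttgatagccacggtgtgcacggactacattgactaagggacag
These letters are the EBF motif TCCCNNGGGA without its last base, EBF proteins (the Olf/Ebf family) being transcription factors of olfactory sensory neurons. The shorter form overlaps the full one wherever the full one occurs. It was found in 1 of the 4 windows shown, that of Cnga2, starting 67 bases upstream of the start site. The windows of Eomes, Tbx21, Stoml3, Th and Scgn were also searched, are not printed, and held no match. Cnga2 was a scarce transcript and is not among the 70 genes counted below. The shorter form was present in 6.56% of all 32851 promoter windows, and the full motif in 0.904%. Of the 70 genes described in the next paragraph, 47 had a RefSeq window, and the shorter form occurred in at least 1 window of 5 of them (10.6%), against 7.48% of all 27025 genes. The full motif occurred in 0 of the 47 genes, against 1.06% of all genes. The letters AGGTGTGA, the core of binding sites for T-box factors such as Eomes and Tbx21, also searched on both strands, occurred in 1 of 47 (Nppa, 2.13%), against 1.48% of all genes and 1.28% of all windows. A match is a description of letters and says nothing of binding.

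Levels in the rest of the text are CPM scaled by TMM, a normalization that corrects for composition, and a difference is the mean log2(CPM + 0.5) of the 3 bulb-rich libraries minus that of the other 9. In all 3 bulb-rich libraries 546 of the 17441 tested genes (3.13%) lay above every other library, and 401 (2.3%) lay below every other library. With a difference of at least 1 as well, 70 genes (0.401%) were higher and 2 (0.0115%) were lower, so that the large differences were almost all in 1 direction. The 70 genes summed to 1948 CPM in KI_WT 3, 1003 CPM in KO 1 and 1083 CPM in KO_WT 3, against 325 to 435 CPM in 8 of the other libraries and 631 CPM in KI 2. Of the 70, 66 were highest in KI_WT 3, and KO 1 exceeded KO_WT 3 for 24. KI_WT 3 was thus the highest for most of these genes, as it was for Doc2g, and the order of KO 1 and KO_WT 3 differed between genes. How many genes pass depends on the libraries: 45 genes were counted when KI_WT 3 was left out, and 124 when KO_WT 3 was left out. Of the 70 genes, 19 belong to the lists of bulb cell types described below, and the median difference was 1.41, against 0.00 over all tested genes.

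Genotype and line do not differ within a group, so each bulb-rich library was also set against its own 2 group mates. For 43 genes (0.247% of those tested) the bulb-rich library was at least 1 log2 unit above the mean of its mates in all 3 groups, and for 0 genes (0%) it was as far below in all 3. Of the 43, 39 are among the 70. The median difference of the 70 genes from the group mates was 2.173 for KI_WT 3, 1.27 for KO 1 and 1.45 for KO_WT 3, whereas over all tested genes it was 0.00 in each group. Each of the 70 genes was chosen for lying above every other library, the group mates included. Their medians therefore had to be positive, and only the sizes are a description. The size was largest in KI_WT. The animal numbers run below 200 (KO 1, KO_WT 2 and KO_WT 3) and above it (the other 9). Within the low numbers KO 1 and KO_WT 3 stood against KO_WT 2 alone. By the same rules 115 of 17441 genes were higher and 69 lower. Within the high numbers KI_WT 3 stood alone against the rest, with 210 higher and 50 lower. With a single library on 1 side the rules are easier to pass, so these counts do not compare with the 70 and 2 above.

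The projection neuron genes had the largest median difference of the lists. Of the 8 listed genes, all of which were tested, 6 lay above every other library in the 3 bulb-rich ones (3.13% over all tested genes). The median difference was 2.5. Doc2g, on which the libraries were selected, is one of the 8; of the other 7, 5 lay above every other library, with a median difference of 2.41. With Doc2g, the summed level was 318 CPM in KI_WT 3, 131 CPM in KO 1 and 151 CPM in KO_WT 3, against 18.1 to 67.2 CPM in the other libraries, with KI 2 the highest of those. Without it the sums were 246, 105 and 125 CPM, against 16.3 to 51.9 CPM. Cdhr1, a cadherin-related adhesion protein of mitral and tufted cells, was at 134, 45.4 and 66.1 CPM in KI_WT 3, KO 1 and KO_WT 3, against a lowest, median and highest value of 2.61, 5.50 and 22.6 CPM elsewhere. The 3 libraries did not overlap the others, and the highest of the others was KI 2. Eomes, the T-box transcription factor Tbr2 that marks mitral and tufted cells, was at 35, 13.0 and 17.1 CPM, against 0.451, 1.22 and 6.45 CPM. Tbx21, a second T-box factor of these cells, was at 4.81, 2.30 and 3.16 CPM, against 0.0283, 0.110 and 1.06 CPM. In reads Tbx21 had 161, 84 and 105 in the bulb-rich libraries and 1 to 37 in the others, so it was a scarce transcript that nevertheless separated them. Shisa3, a membrane protein that dampens Wnt and FGF signalling, was at 27.7, 10.1 and 14.1 CPM, against 1.36, 1.92 and 4.01 CPM, and the homeobox gene Barhl2 was at 1.67, 0.904 and 1.08 CPM, against 0.0323, 0.275 and 0.538 CPM. Exons of Shisa3 overlap Atp8a1 on the opposite strand, and reads of the pair cannot be told apart where the strand setting of the counting is not given. Spp1 (osteopontin, a secreted phosphoprotein made by many cell types) and A230065H16Rik (listed as Lbhd2 in current nomenclature) were the members that overlapped, with differences of 0.86 and 1.30. In each of them KO_WT 3 lay just below the highest other library, at 21.1 against 21.4 CPM for Spp1 and 2.41 against 2.69 CPM for A230065H16Rik.

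**Figure D1:**
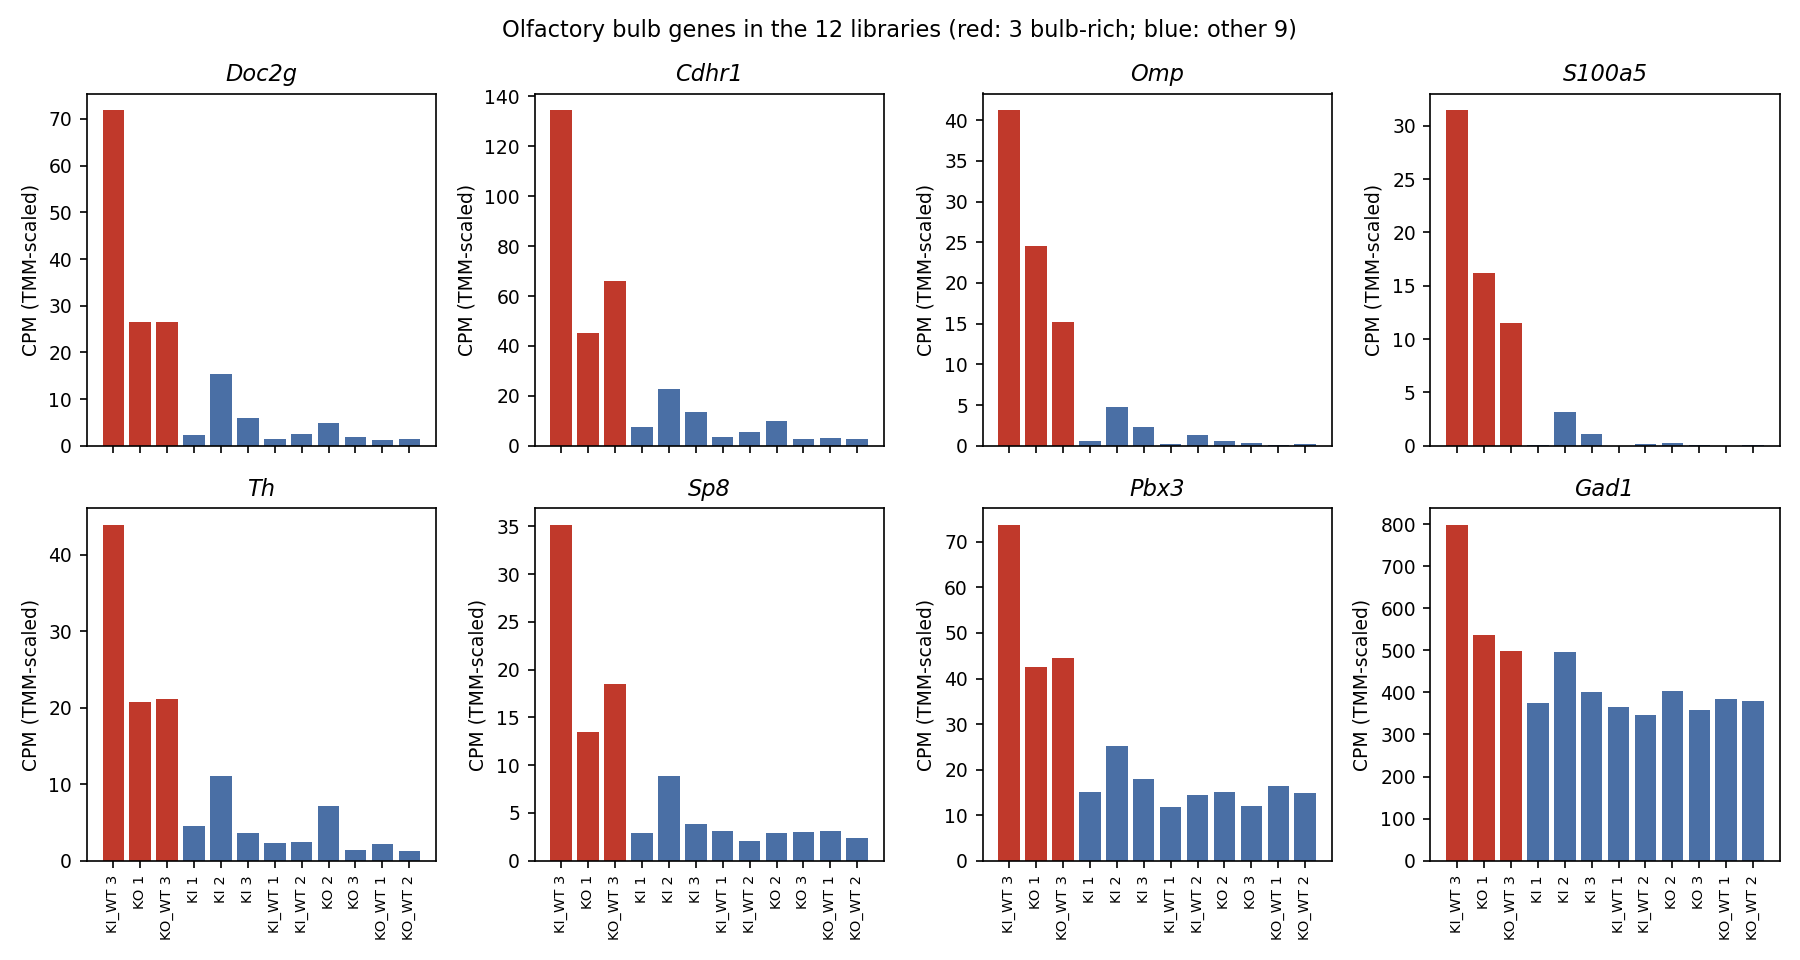
TMM-scaled CPM (linear y axes starting at 0) of 8 genes in each of the 12 libraries, 1 bar per library, the 3 bulb-rich ones in red on the left and the other 9 in blue. In all 8 panels KI_WT 3 is the highest bar and KI 2 the highest blue bar, and for Gad1 KI 2 (496 CPM) nearly equals KO_WT 3 (497 CPM).

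Sensory neuron genes held the largest differences of all, but only for part of the list. Of 10 genes, 5 lay above every other library (3.13% over all tested genes), and the median difference was 0.32. S100a5, a calcium-binding EF-hand protein of olfactory sensory neurons, had the largest difference of any gene counted (4.55), at 31.5 CPM in KI_WT 3, 16.2 CPM in KO 1 and 11.5 CPM in KO_WT 3. In the other 9 libraries it ranged between 0 and 3.19 CPM with a median of 0.0601 CPM, the highest being KI 2. Omp, the olfactory marker protein of mature sensory neurons, came second (4.34) at 41.2, 24.6 and 15.2 CPM in KI_WT 3, KO 1 and KO_WT 3, against a lowest, median and highest value of 0.126, 0.538 and 4.71 CPM. In reads Omp had 1380, 897 and 504 in the bulb-rich libraries, against 165 in KI 2, 79 in KI 3, 43 in KI_WT 2 and 4 to 20 in the remaining 6. Omp mRNA is one of the transcripts known to be carried into sensory axons. Stoml3, a stomatin-like protein of olfactory cilia, was at 8.18, 5.84 and 5.14 CPM, against 0.567, 0.970 and 1.74 CPM. Cnga2, the main subunit of the olfactory cyclic nucleotide-gated channel, was at 1.25, 0.822 and 0.602 CPM, which is 42, 30 and 20 reads, against 0.166, 0.240 and 0.441 CPM. Gng13, a G protein gamma subunit that many neurons make, was at 18.6, 17.2 and 16.1 CPM, against 10.6, 13.8 and 15.6 CPM; its exons overlap Chtf18 on the opposite strand. The other 5 members overlapped: Cnga4 (a second channel subunit), Adcy3 (the olfactory adenylyl cyclase), Gnal (the olfactory and striatal G protein alpha subunit), Gng8 and the adhesion molecule Kirrel2 had differences between -0.18 and 0.25. Adcy3 and Gnal are also made elsewhere in the forebrain, and they were at 37.5 to 57.0 CPM and 150 to 321 CPM in the other 9 libraries.

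The interneuron list moved almost as a whole. Of 15 genes, 13 lay above every other library (3.13% over all tested genes) and all 15 had a positive difference (48.9% over all tested genes), with a median of 1.12. The bulb-rich library exceeded the mean of its group mates in all 3 groups for all 15, as it did for 21.1% of all tested genes (3684). Sp8, a zinc finger transcription factor needed for bulb interneurons, was at 35.1, 13.5 and 18.5 CPM in KI_WT 3, KO 1 and KO_WT 3, against a lowest, median and highest value of 2.05, 2.98 and 8.90 CPM in the others. Scgn (secretagogin, a calcium-binding protein of bulb interneurons) was at 18.5, 8.14 and 8.66 CPM, against 0.472, 0.978 and 4.94 CPM. Pbx3, a homeobox partner protein, was at 73.7, 42.5 and 44.4 CPM, against 11.8, 15.1 and 25.1 CPM. These regulators and markers separated the libraries without overlap, and KI 2 was the highest of the other 9 for each. The Dlx homeobox genes, which specify GABA neurons of the forebrain, had differences of 1.31 (Dlx1), 1.10 (Dlx2), 1.12 (Dlx5) and 0.72 (Dlx6). Dlx1 overlaps its antisense gene Dlx1as. Meis2, a homeobox gene expressed throughout the striatum and bulb, was at 289, 192 and 206 CPM, against 84.2, 119 and 159 CPM. Pax6 and Tshz1, transcription factors of bulb periglomerular and granule cells, had differences of 0.75 and 1.0, and Synpr (synaptoporin, a vesicle protein) one of 0.86. Sp9 (1.22), a relative of Sp8 whose exons overlap Cir1, and Tpbg (0.50), a membrane glycoprotein of granule cells, complete the 13. The exceptions were Calb2 and Trh. Calb2 (calretinin, of granule and periglomerular cells) was at 141, 81.4 and 67.6 CPM, with KI 2 at 76.9 CPM above KO_WT 3, and Trh (the precursor of thyrotropin-releasing hormone) was at 30.4, 27.9 and 17.9 CPM, against 1.07 to 23.2 CPM.

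Dopamine genes differed among themselves. Th, tyrosine hydroxylase and the rate-limiting enzyme of dopamine synthesis, was at 43.8, 20.7 and 21.2 CPM in KI_WT 3, KO 1 and KO_WT 3, against 1.29, 2.45 and 11 CPM as the lowest, median and highest of the others. Slc6a3, the dopamine transporter, was at 2.75, 1.34 and 1.17 CPM, against 0.0647, 0.122 and 0.748 CPM. These 2 of 7 genes lay above every other library (3.13% over all tested genes), and the list had a median difference of 0.26. Ddc (the decarboxylase that follows Th), Gch1 (which makes the cofactor of Th), Slc18a2 (the vesicular monoamine transporter), Nr4a2 (a transcription factor of dopamine neurons that the cortex also makes) and Aldh1a1 had differences between -0.22 and 0.42. Of the GABA genes, Gad1 and Gad2, which encode the GABA-synthesizing enzymes, lay above every other library (2 of 4, beside the same 3.13%, with a median difference of the list of 0.40). Gad1 was at 797, 537 and 497 CPM, against 346.4, 379 and 496 CPM, and Gad2 at 330, 318 and 304 CPM, against 218, 243 and 292 CPM. The vesicular GABA transporter Slc32a1 (0.43) overlapped.

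Genes of migrating neuroblasts and of ensheathing glia moved less. Among 8 neuroblast genes the median difference was 0.50, and Sox4, a transcription factor of immature neurons, and Cd24a, a surface glycoprotein, were the 2 that lay above every other library (3.13% over all tested genes). Sox4 was at 50.3, 39.9 and 41.6 CPM, against 21.5, 24.9 and 33.2 CPM. Dcx (doublecortin, a microtubule protein of migrating neurons) had the largest difference of the list (0.93) but was uneven, at 97.3 CPM in KI_WT 3, 44.8 CPM in KO 1 and 81.5 CPM in KO_WT 3, with KI 2 at 46.9 CPM above KO 1. The proliferation genes Mki67 and Top2a had differences of -0.14 and -0.06. Of 6 genes listed for olfactory ensheathing glia, the cells that wrap the sensory axons, 2 lay above every other library, beside the same 3.13%, and the median difference was 0.66. Fabp7, a fatty acid-binding protein that radial glia and astrocytes also make, was at 225, 149 and 116 CPM, against 37.1, 49.2 and 89.0 CPM, and Frzb, a secreted Wnt inhibitor, at 39.5, 27.5 and 31.0 CPM, against 5.47, 19.6 and 25.5 CPM. Prss56, a protease, was at 1.91, 0.959 and 0.692 CPM, with KI 2 above both of the lower bulb-rich libraries at 1.08 CPM, and Npy, a peptide that cortical interneurons make as well, had a difference of -0.24.

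**Figure D2:**
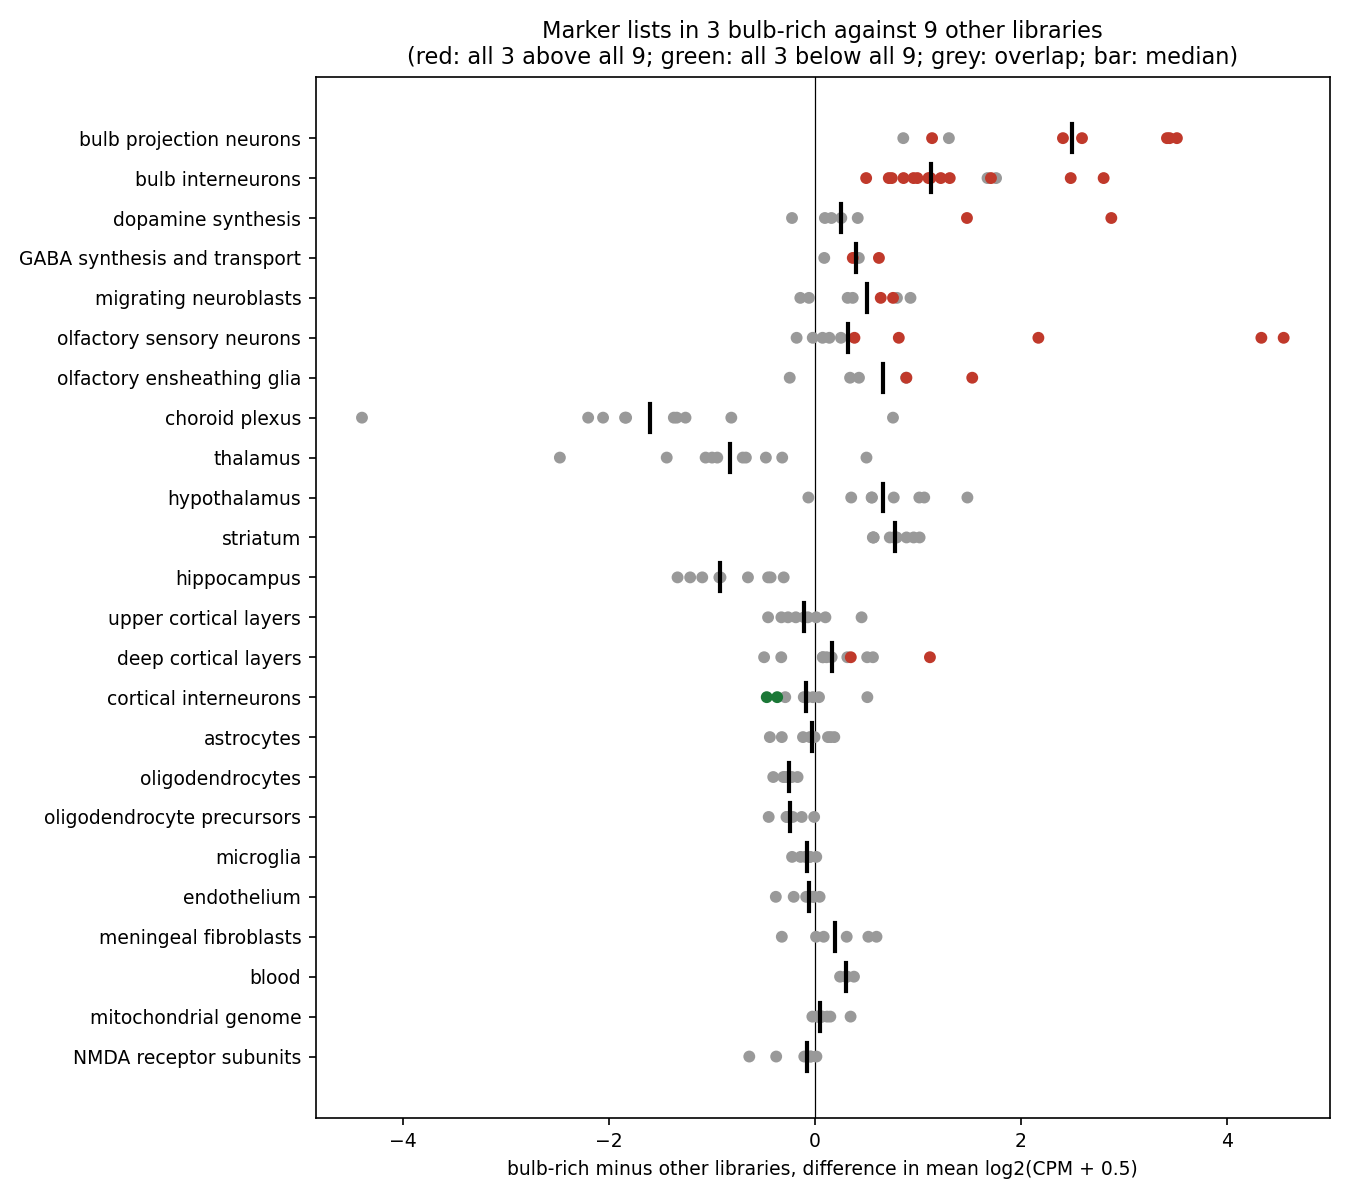
Differences in mean log2(CPM + 0.5), bulb-rich minus other libraries, for the tested members of 24 marker lists, 1 point per gene, with a black bar at the median of each list. Projection neuron and interneuron lists lie to the right of 0 with medians of 2.5 and 1.12, and sensory neuron genes split into a high and a near-0 set. Hippocampus lies to the left, as do choroid plexus and thalamus except for 1 gene each. Every member of these 3 lists overlaps between the 3 and the 9 libraries.

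Genes with large differences were not limited to the lists. Among the 15 largest, Frmd7 (3.19), a FERM domain protein of neurites, was at 43.9 CPM in KI_WT 3, 10.6 CPM in KO 1 and 17.0 CPM in KO_WT 3, against a lowest, median and highest value of 0.630, 1.28 and 5.48 CPM. Ms4a15 (3.64), of the 4-transmembrane MS4A family, was at 18.5, 6.33 and 7.76 CPM, against 0, 0 and 2.91 CPM. Lgr5 (2.32), the R-spondin receptor known as a stem cell marker of the intestine, was at 31.4, 11.5 and 13.0 CPM, against 1.98, 2.66 and 6.36 CPM. Clca1 (2.63), a regulator of calcium-activated chloride channels, and Trdn (2.61), triadin, a protein of the muscle calcium release complex, followed the same order of KI_WT 3, KO_WT 3 and KO 1. None of these 5 genes was on a bulb list. Per unit of length, on the deposited RPKM scale, S100a5 averaged 46.1 over the bulb-rich libraries, against a median of 0.136 in the others, Cdhr1 19.2 against 1.25, Doc2g 13.9 against 0.774, Omp 12.7 against 0.257 and Th 12.2 against 1.01. On that scale Fabp7 (132 against 39.0), Gad1 (80.7 against 48.6) and Calb2 (68.3 against 19.7) were more abundant in both kinds of library.

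The bulb genes did not scale alike between the 3 libraries. The excess of a gene in a library is its CPM minus the median of the other 9, here given as a percentage of the excess in KI_WT 3. Over the 70 genes the median excess was 40.4% in KO 1 (lower and upper quartile 30.2% and 53.4%) and 44.3% in KO_WT 3 (36.7% and 56.8%). Doc2g itself was at 34.8% in both libraries. Of the other 7 projection neuron genes, 5 had the larger excess in KO_WT 3, among them Cdhr1 at 30.9% in KO 1 and 47.0% in KO_WT 3, Eomes at 35% and 46.8%, and Tbx21 at 46.6% and 64.9%. The other 2 had it in KO 1, with Spp1 at 66.5% in KO 1 and 28.8% in KO_WT 3 and A230065H16Rik at 57.1% and 19.9%. The 5 sensory neuron genes that did not overlap had the larger excess in KO 1, with Omp at 59.1% in KO 1 and 36.0% in KO_WT 3, S100a5 at 51.4% and 36.3%, Stoml3 at 67.4% and 57.9%, Cnga2 at 57.3% and 35.6%, and Gng13 at 70.3% and 48.0%. Th was about even at 44.0% and 45.2%, Sp8 stood at 32.7% and 48.4%, and Fabp7 at 57.0% and 37.9%. With 1 library on each side these orders have no replicate check. For KI 2 the excess, and that of KI_WT 3 beside it, was taken over the median of the other libraries without KI 2. On this slightly different scale the median excess of the 70 genes in KI 2 was 17.3% (11.3% and 23.2%).

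**Figure D3:**
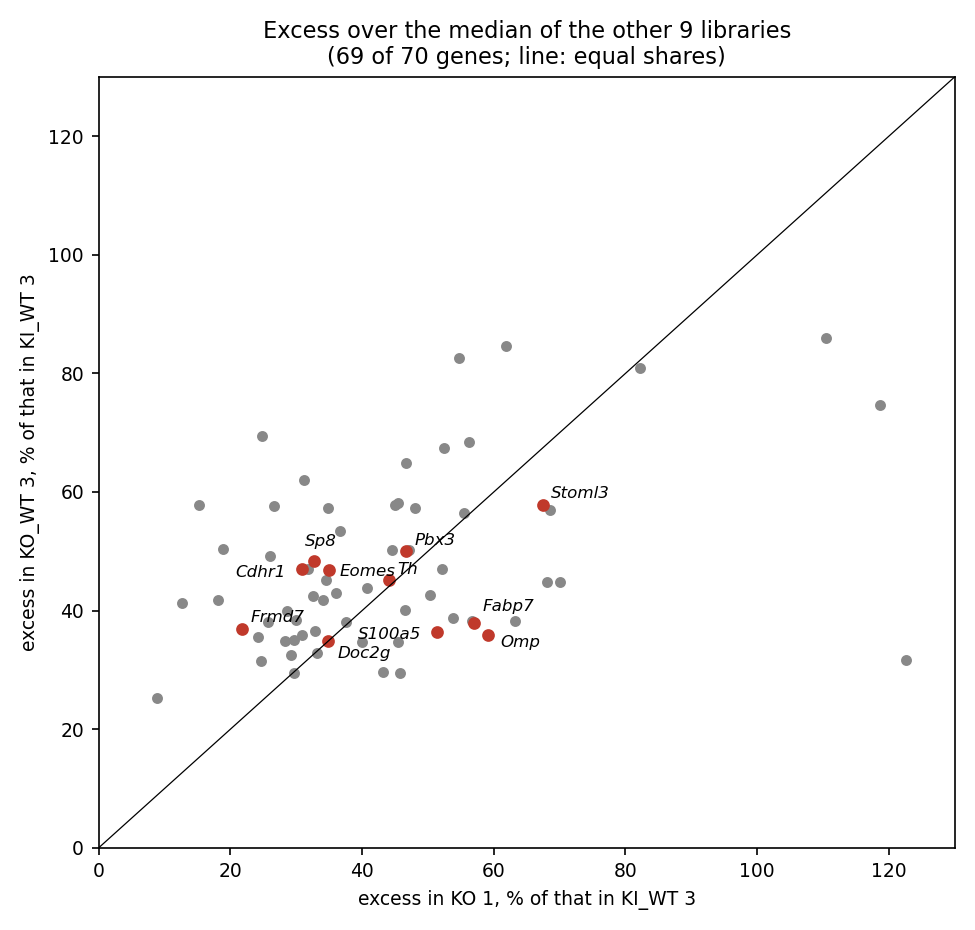
Excess over the median of the other 9 libraries, as a percentage of that in KI_WT 3, for KO 1 (x axis) and KO_WT 3 (y axis), 1 point per gene for 69 of the 70 genes (Sult1d1 lies outside the plotted range), with equality as a line. Omp, S100a5, Stoml3 and Fabp7 lie below the line, Cdhr1, Eomes, Sp8 and Frmd7 above it, and Doc2g on it.

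KI 2 stood between the bulb-rich and the other libraries for most of these genes. It was the highest of the other 9 libraries for 54 of the 70 genes, against 13.8% of all tested genes (2403). KO 2 was the highest for 9 of the 70, KI 1 for 4, and KI_WT 2, KO_WT 1 and KO_WT 2 for 1 each. On the first principal component of all tested genes (25.5% of the variance), KI_WT 3 stood at 33.5, KO 1 at 24.5, KO_WT 3 at 13.4 and KI 2 at 7.17, whereas the other 8 libraries lay between -16.9 and -1.79. The component thus ordered the 3 bulb-rich libraries and KI 2 above all others, across genotypes and lines.

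Few genes were lower. The 2 that passed were Atp2a1, a calcium pump of fast muscle, at 0.0896 CPM in KI_WT 3, 0.137 CPM in KO 1 and 0.120 CPM in KO_WT 3, against 0.153 to 2.93 CPM, and Ramp3, a partner protein of calcitonin-family receptors, at 6.60, 5.94 and 7.16 CPM, against 8.93 to 21.4 CPM. The first rests on 3, 5 and 4 reads, and its exons overlap Rabep2 on the opposite strand. The count changed by over 1.5 times with 6 of the 12 libraries left out singly: it was 10 without KO 1, 9 without KO_WT 3, 8 without KO_WT 1 and 1 without KI 2, KI 3 or KO 3. It was 3 without KI_WT 3. Among 8 cortical interneuron genes (median difference -0.09), 2, Pvalb and Cck, lay below every other library by smaller amounts (2.3% over all tested genes). Pvalb (parvalbumin) was at 43.4, 41.3 and 36.9 CPM, against 47.6 to 66.5 CPM, and Cck (cholecystokinin) at 146, 143 and 151 CPM, against 165 to 213 CPM.

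The labelled tissue is cortex, and cortical neuron genes were present in all 12 libraries. The 9 upper-layer genes summed to 675 CPM in KI_WT 3, 642 CPM in KO 1 and 750 CPM in KO_WT 3, against 653 to 866 CPM in the others, with a median difference of -0.10. Cux2, a homeobox factor of upper-layer neurons, was at 58.6, 43.1 and 59.1 CPM, against 56.0 to 82.5 CPM. The 11 deep-layer genes summed to 504, 487 and 437 CPM, against 361 to 443 CPM (median difference 0.16). Of these genes, 2 lay above every other library (3.13% over all tested genes). One was Syt6, a synaptotagmin of layer 6 neurons, at 88.6, 51.4 and 48.2 CPM, against 18.3 to 44.6 CPM, and the other was Bcl11b (Ctip2), a zinc finger factor of subcerebral projection neurons that striatal neurons also make, with a difference of 0.35. Grin1, the gene that carries the engineered exon, was at 327, 269 and 308 CPM, against 294 to 363 CPM, but a count per gene does not show which exons are present. The 6 tested NMDA receptor subunit genes had a median difference of -0.07, all of them overlapping.

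Transcripts of other brain regions also varied between the libraries, and only partly along with the bulb genes. The striatum list had a positive difference for 12 of 12 genes, as had 48.9% of all tested genes (median difference of the list 0.78), with 0 of 12 non-overlapping, and summed to 1486 CPM in KI_WT 3, 1557 CPM in KO 1 and 927 CPM in KO_WT 3, against 537 to 1310 CPM. Set against its group mates, the median difference was 1.24 for KI_WT 3, 1.66 for KO 1 and -0.37 for KO_WT 3. The mates of KO_WT 3 summed to 1310 CPM (KO_WT 1, the highest of the other 9) and 969 CPM (KO_WT 2). KO_WT 3 was thus not raised over its mates, but its 927 CPM lay above the median of the other 9 (706 CPM). Adora2a, the adenosine receptor of striatal neurons, was at 53.4, 59.6 and 29.7 CPM, against 10.4 to 50.8 CPM. Meis2, the Dlx genes, Gad1 and Gad2 are made by striatal neurons as well, and the part of the striatal level in them was not tested. Choroid plexus genes had a positive difference for 1 of 10 (median difference -1.60, 0 of 10 non-overlapping), with a sum of 27.5 CPM in KI_WT 3 and 30.9 CPM in KO_WT 3 but 910 CPM in KO 1, against 22.5 CPM in KO_WT 1 and 568 to 1941 CPM in the remaining 8. Ttr, transthyretin, the main product of the plexus, was at 2.36, 827 and 8.85 CPM, against 8.69 to 1781 CPM. A low plexus level thus went with 2 of the 3 bulb-rich libraries and with 1 other. Thalamus genes summed to 135, 147 and 123 CPM, against 114 to 385 CPM (median difference -0.82, 0 of 10 non-overlapping), and KI_WT 1, KI_WT 2 and KO_WT 1 were as low. Hippocampus genes had a positive difference for 0 of 9 (median difference -0.92, 0 non-overlapping), at 152, 153 and 286 CPM in sum, against 184 to 367 CPM, with a median of 0.16 within KO_WT. Hypothalamus genes summed to 18.3, 164 and 9.30 CPM, against 2.54 to 149 CPM (8 tested, median difference 0.66), the high libraries being KO 1 and KI 1. The hypothalamic peptide gene Hcrt had 20.6 CPM in KO 1, against 0.448 CPM in KI_WT 3 and 0.0301 CPM in KO_WT 3. Each of these lists had 0 genes beyond all other libraries, against 3.13% above and 2.3% below over all tested genes. None of these 5 regional sums set all 3 bulb-rich libraries beyond all others. The sums of the projection neuron, interneuron, GABA and neuroblast lists did, whereas those of the dopamine, sensory neuron and ensheathing lists overlapped.

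**Figure D4:**
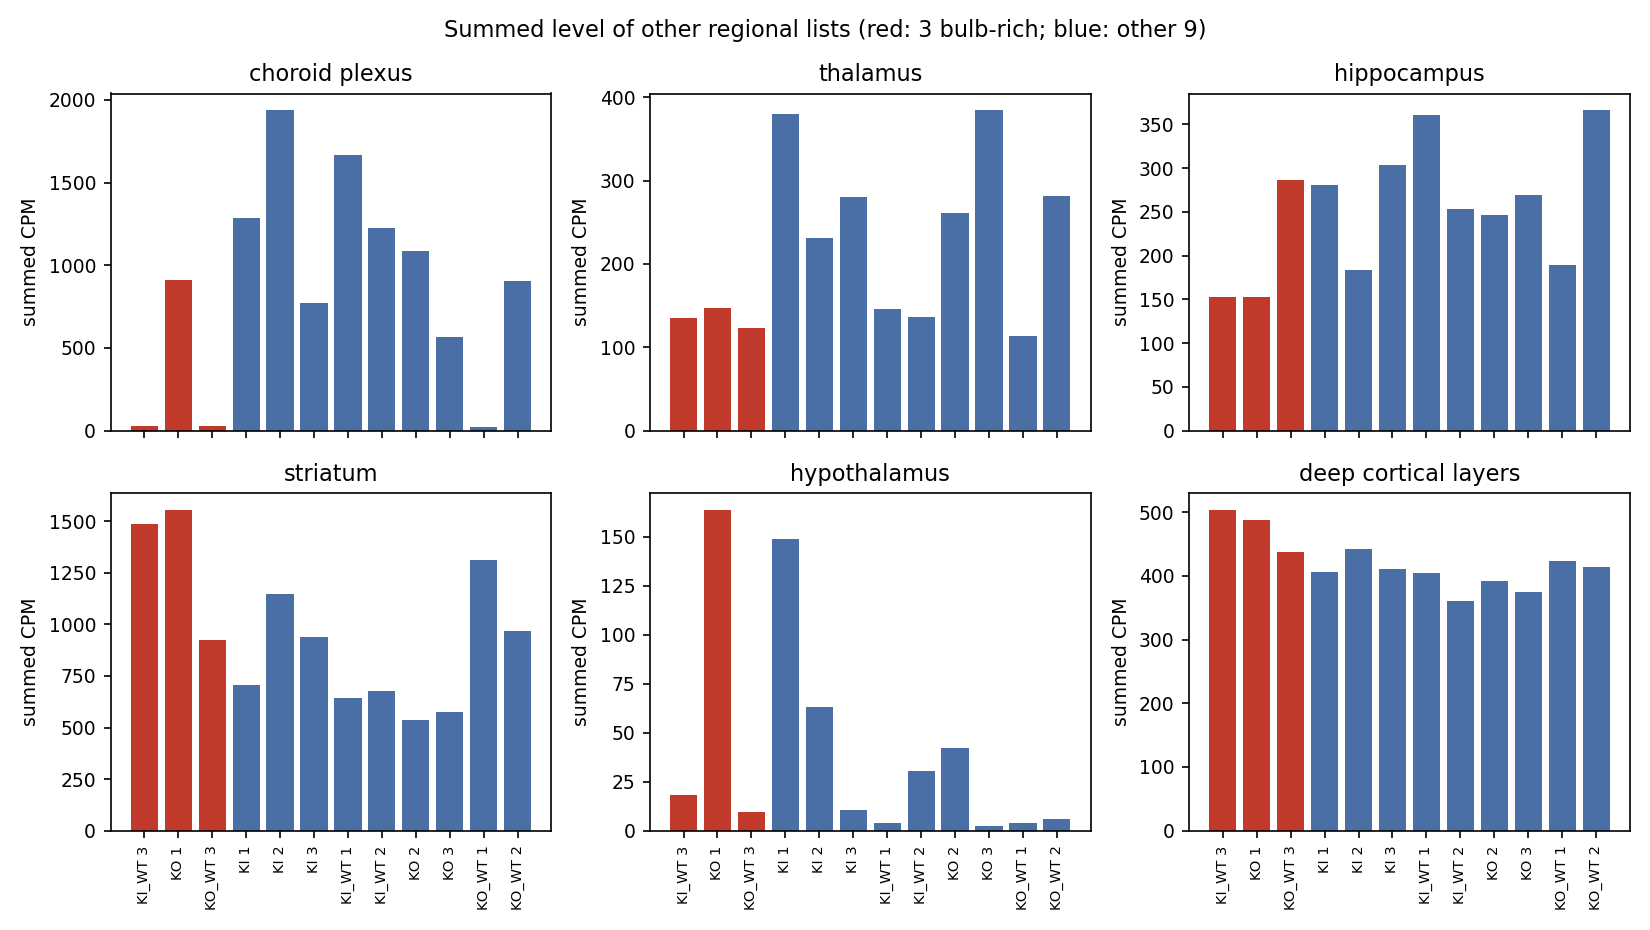
Summed TMM-scaled CPM of 6 regional or layer lists in each library (linear y axes starting at 0), the 3 bulb-rich libraries in red on the left and the other 9 in blue. KI_WT 3 and KO_WT 3 share a low choroid plexus level with KO_WT 1 whereas KO 1 does not, and the thalamus, hippocampus, striatum and hypothalamus bars of the 3 overlap those of the 9.

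Glial, vascular and blood genes differed little. The median differences were -0.03 for 8 astrocyte genes, -0.25 for 8 oligodendrocyte genes, -0.24 for 6 oligodendrocyte precursor genes, -0.07 for 6 microglia genes, -0.05 for 6 endothelial genes, 0.20 for 6 meningeal fibroblast genes and 0.31 for 5 erythroid genes. Of these lists 0 genes lay beyond all other libraries, against 3.13% above and 2.3% below over all tested genes. All 8 oligodendrocyte and all 6 precursor genes had negative differences and all 5 erythroid genes positive ones, as had 48.9% of all tested genes. The other lists held both signs. Against the group mates, the oligodendrocyte median was -0.51 for KI_WT 3, 0.09 for KO 1 and -0.31 for KO_WT 3. The erythroid median was 0.51, -0.01 and 0.72. The 13 genes of the mitochondrial genome had a median of 0.05. Total counts were 33093090 to 35596296 in the bulb-rich libraries and 31790970 to 36514024 in the others, and mitochondrial reads took 6.28% to 7.87% against 4.62% to 9.31%. Depth and mitochondrial share therefore overlapped between the 3 and the 9 libraries.

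The genotype comparisons ask what constitutive inclusion or loss of exon 5 changes in the cortex, and the bulb-rich libraries fall unevenly into them: 0 of 3 in KI and 1 of 3 in each of KI_WT, KO and KO_WT. In edgeR's quasi-likelihood test over all 12 libraries, 0 of 17441 genes (0%) passed a Benjamini-Hochberg adjusted p of 0.05 in KI against KI_WT, with 1214 genes at an unadjusted p under 0.05, and DESeq2 called 2. For the 70 bulb genes the median of the log2 fold changes was -1.06, with 68 of 70 negative, against -0.01 over all genes, and 0 of the 70 passed even unadjusted. For Doc2g the log2 fold change was -1.69 with an SE of 1.48 (edgeR adjusted p = 0.842), at 2.32, 15.3 and 5.90 CPM in KI 1, KI 2 and KI 3 and 1.39, 2.54 and 71.9 CPM in KI_WT 1, KI_WT 2 and KI_WT 3. Cdhr1 (-1.72, SE 1.45), Omp (-2.5, SE 1.91) and S100a5 (-2.86, SE 2.21) had errors as wide. With the 3 bulb-rich libraries left out, 0 of 17581 genes (0%) passed, with 1401 at an unadjusted p under 0.05. The median of the 63 bulb genes still tested was 0.74, with 62 of 63 positive. Of these 63, 25 had an unadjusted p under 0.05 and 0 passed. The libraries were left out for their high Doc2g, and the bulb genes were chosen for being high in them. This choice lowered the KI_WT level of these genes, so the positive median and the 25 genes are a description of the remaining libraries. Without KI_WT 3 alone the median of the bulb genes was 0.78, and without both the bulb-rich libraries and KI 2 it was 0.39. Because the genes were chosen for being high in KI_WT 3, leaving it out had to raise their fold changes. Only the sizes of these medians are a description. None of the bulb genes passed the adjusted p of 0.05 in any of these fits.

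Between KO and KO_WT, each of which holds 1 bulb-rich library, 1 of 17441 genes (0.00573%) passed, with 1260 genes at an unadjusted p under 0.05. DESeq2 called 8 genes, and edgeR 6 without KO 3. The 1 gene was Tpp1, the lysosomal tripeptidyl peptidase, which is not a bulb marker. Tpp1 was at 48.3, 46.1 and 48.6 CPM in KO 1, KO 2 and KO 3, against 83.4, 87.2 and 88.2 CPM in KO_WT 1, KO_WT 2 and KO_WT 3, which is -0.86 on the log2 scale with an SE of 0.06 (edgeR adjusted p = 1.71e-04). For this gene KO 1 lay between its group mates and KO_WT 3 just above its own. Among the 70 bulb genes the median of the log2 fold changes was -0.04, with 37 negative and 33 positive, and 0 passed. Doc2g had one of 0.18 (SE 1.46, edgeR adjusted p = 0.984). The median was 1.24 without KO_WT 3 and -0.85 without KO 1. The genes were chosen for being high in both libraries, so the directions of these shifts were fixed. Only their sizes are a description. Without all 3 bulb-rich libraries the median of 63 bulb genes, by the same choice a description, was 0.19. Of these 63, 6 had an unadjusted p under 0.05 and 0 passed. Of all 17581 genes in that fit, 935 had an unadjusted p under 0.05 and 2 (0.0114%) passed. Those 2 genes were Tpp1 (adjusted p = 0.0183) and Lrrc10b, a leucine-rich repeat protein gene, whose log2 fold change was -1.30 with an SE of 0.13 (edgeR adjusted p = 0.0183). Lrrc10b was at 62.4 CPM in KO 1, 23.6 CPM in KO 2 and 26.3 CPM in KO 3, against 64.6, 58.6 and 33.8 CPM in KO_WT 1, KO_WT 2 and KO_WT 3. In each group the bulb-rich library departed from its 2 mates, KO 1 high and KO_WT 3 low. Lrrc10b was called once these libraries were left out, so this departure follows from how the gene was found. With all 12 libraries its edgeR adjusted p was 0.736. The 12 striatum genes summed to 1557, 537 and 577 CPM in KO 1, KO 2 and KO 3. In KO_WT 1, KO_WT 2 and KO_WT 3 they summed to 1310, 969 and 927 CPM. Without the bulb-rich libraries their median log2 fold change was -1.15, with 0 of 12 passing. Whether Lrrc10b runs with the striatal level was not tested.

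**Figure D5:**
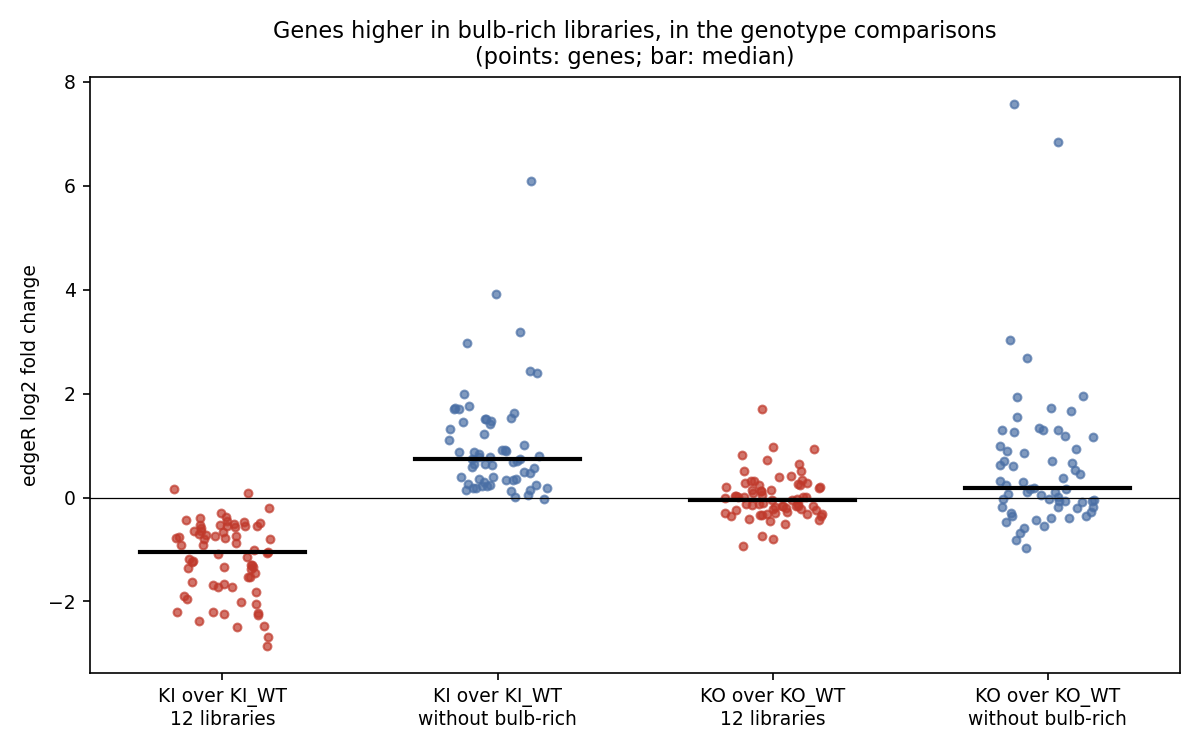
edgeR log2 fold changes of the genes higher in bulb-rich libraries, 1 point per gene with the median as a bar, for KI over KI_WT and KO over KO_WT, each with all 12 libraries (red, 70 genes) and without the 3 bulb-rich libraries (blue, 63 genes). The KI median is -1.06 with and 0.74 without the bulb-rich libraries, and the KO median -0.04 and 0.19; the highest points are genes with few or no reads in the wild types, whose fitted fold depends on the prior count.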

How the data were processed

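Poly(A) RNA-seq libraries of 12 mice were processed with bcl2fastq 2.17, STAR 2.5.0c and Cufflinks 2.2.1 on the GRCm38 build, as the submitters' processing notes list them. The read counter, annotation and strand setting are not given in the sources used here. The authors deposited raw counts for 41388 genes, and an RPKM table, used here for levels per length alone. Of the gene IDs 40254 matched GENCODE M21. In R 4.3.3, edgeR 4.0.16 kept 17441 genes (filterByExpr, 4 groups) and fitted quasi-likelihood models with TMM scaling and 1 mean per group (8 residual degrees of freedom, 5 without the bulb-rich libraries; biological coefficient of variation 15.7%). The SE given with a log2 fold change is approximate. It was computed as the absolute fold change divided by the square root of the F statistic of its edgeR test. limma 3.58.1 and DESeq2 1.42.0 were alternatives. The code was tested on simulated data. The members, the threshold and the 25 gene lists were chosen with earlier results of these data known. Genes named are Doc2 genes, Grin1, the 15 largest differences in each direction with at least 1 CPM, bulb list members, up to 4 genes of each other list and called genes. Bcl11b, Nppa and Sult1d1 are named outside this rule, after their values were seen. Values of some list members are not reported here.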

Additional observations from a re-analysis of the deposited data

Results flagged for a closer look

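Among the 9 libraries that are not bulb-rich, the highest and the lowest library were compared with the rest for 90 measures (the CPM of bulb genes and of the largest differences, and the summed CPM of each list). In 17 of them 1 library stood further apart than the 95% critical gap for 9 values allows. Chance flags about 1 in 20 groups, and genes that share a library are not independent. KI 2 was the library that stood apart, always as the highest, in 13 of these: Doc2g (15.3 CPM), Eomes (6.45), Ms4a15 (2.91), S100a5 (3.19), Omp (4.71), Scgn (4.94), Sp8 (8.90), Lgr5 (6.36), Dlx1 (28.7), Pax6 (13.2), Pbx3 (25.1), Gad1 (496) and Prss56 (1.08 CPM). KO 2 stood apart as the highest for Atp2a1 (2.93 CPM), Mybpc1 (8.05 CPM), a myosin-binding protein, and Npy (113 CPM). KI 1 stood apart for the summed hypothalamus genes (149 CPM).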

How the results depend on the processing

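The 70 higher genes became 45 to 124 and the 2 lower genes 1 to 10 when single libraries were left out. With animal numbers below 200 the counts were 115 and 69, and with numbers above 200 they were 210 and 50, where the medians of the projection neuron, interneuron and ensheathing lists were 3.10, 1.47 and 1.0. The lower count was 1 with plain CPM, 9 with a pseudocount of 0.1, 0 with a pseudocount of 1 and 0 with a Doc2g threshold of 10 CPM. The pseudocount of 0.1 also raised the within-group count to 71 and the projection neuron median to 3.21, and a filter of 1 CPM in 3 libraries gave 0.43 for ensheathing glia. KI against KI_WT had 2 calls with DESeq2 and 1 with the 2 groups alone. KO against KO_WT had 8 with DESeq2, 2 without the bulb-rich libraries, 3 without these and KI 2 (a fit chosen after seeing the data), and 1 to 6 with single libraries left out. The bulb gene median in KI was 0.31 with limma voom quality weights, 0.74 without the bulb-rich libraries, 0.40 with a term for them and 0.39 without KI 2 as well, and -1.45 to 0.78 with single libraries left out; in KO that range was -0.85 to 1.24. Doc2g in KI was 0.97, 2.0, 1.47 and 1.06 in those 4 fits, and -2.62 to 2.0 (KI) and -1.58 to 3.01 (KO) with single libraries left out. The other 316 values kept their direction and side of the threshold or stayed within a wide tolerance. It was 1.5 times for counts, 0.996 log2 units for the bulb gene medians and 0.13 to 0.55 for the list medians. For the excess it was 20.2 (KO 1) and 22.1 (KO_WT 3) percentage points. Within it, the 70 higher genes became 100 with a pseudocount of 0.1, 53 with one of 1 and 55 with a Doc2g threshold of 10 CPM. The KO median of the bulb genes became 0.44 with a term for animal number below 200. No paired analysis was possible because the replicate numbers were given in accession order and pair no samples. The cause of these changes was not tested.

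Depth limits the scarce genes, such as Tbx21, Cnga2 and Atp2a1. KI_WT, KO and KO_WT hold 1 bulb-rich library each and KI holds 0, so that a bulb-rich library and its animal cannot be told apart. The signs without bulb-rich libraries are set in part by their selection on Doc2g.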
